A study of Mus musculus with 13 samples.

Results

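Transcript levels of 9 genes were followed through 13 mouse mRNA sequencing libraries: 5 components of the phagocyte NADPH oxidase (Cybb, Cyba, Ncf1, Ncf4 and Rac2) and 4 antioxidant enzymes (Sod2, Gpx1, Prdx1 and Nqo1). They were chosen by symbol, and each was found once among the 21073 genes of the deposited expression table. The mice were on a C57BL/6J background and were either wild type (WT) or carried the STAT5 double knock-in (DKI), in which changes in Stat5a and Stat5b leave STAT5 dimers intact and block tetramers. DKI mice with experimental autoimmune encephalomyelitis (EAE), induced with the myelin peptide MOG35-55 in complete Freund's adjuvant (CFA) plus pertussis toxin, gave bone marrow monocytes, spinal cord monocytes and spinal cord monocyte-derived antigen-presenting cells (APCs), sorted on day 14, with 1 library each. WT and DKI mice given MOG35-55 in CFA without pertussis toxin gave spleen and lymph node cells on day 14, which were cultured with the peptide under Th17 conditions, and CD4+ T cells were sorted from them after 3 days. These Th17 libraries comprised WT (n = 2), DKI (n = 2), DKI without CCL17 (n = 3) and DKI with CCL17, a chemokine ligand of CCR4, added to the culture (n = 3). No myeloid library came from WT mice, so the genotype could be compared in Th17 cells only. The labels do not say whether replicates came from separate animals, so p-values measure the spread between these libraries, which may be technical.

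The phagocyte NADPH oxidase passes electrons from NADPH across a membrane to oxygen and so makes superoxide, which phagocytes use to kill microbes and which also acts as a signal and can damage inflamed tissue. Its membrane core pairs the catalytic subunit encoded by Cybb (NOX2) with the partner encoded by Cyba. On activation, cytosolic subunits, among them those encoded by Ncf1 and Ncf4, and the small GTPase RAC2 join this core. Superoxide dismutases, SOD2 in mitochondria, convert superoxide to hydrogen peroxide, which glutathione peroxidases such as GPX1 and peroxiredoxins such as PRDX1 reduce. NQO1 is a quinone reductase and a classical target of the transcription factor NRF2.

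Expression is given as the level log2(RPKM + 1), where RPKM is the read number scaled to transcript length and to the reads of the library, or as RPKM itself. Both scales account for transcript length, so levels of different genes can be set side by side. Estimated depth ran from 12500000 to 31800000 assigned reads per library. The labelled cell types carried their markers: the 10 T cell markers summed to 2000 to 2740 RPKM in the Th17 libraries, against 0.566 in bone marrow monocytes (4 of 10 at 0) and 25.7 to 27.8 in the cord libraries. The 10 myeloid markers summed to 15900 to 20800 RPKM in the myeloid libraries. In the Th17 libraries their sum was 56.2 to 105 in WT, 37.5 to 40.4 in DKI, 714 to 1090 in DKI without CCL17 and 679 to 887 with CCL17, with none of the 10 at 0 in every library of a group. Neutrophil markers summed to 6730 RPKM in bone marrow monocytes and 744 to 1040 in the cord libraries, and microglia markers to 191 and 514 to 1310. The knock-in alters the proteins, so transcript levels of Stat5a and Stat5b do not check the genotype.

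Promoter windows, from 250 bases before to 50 bases after the annotated start, were taken from RefSeq on build GRCm38.p6 and matched 7 of the 9 genes, Ncf4 and Rac2 having no entry. They were searched on both strands for 4 motifs picked after the expression values were known: the PU box GAGGAA, read by the myeloid factor PU.1, the STAT site TTCNNNGAA, the antioxidant response element TGACNNNGC of NRF2, and the AP-1 site TGANTCA. The windows of Cybb (chrX:9469295-9469574, minus strand), Ncf1 (chr5:134229596-134229875, minus strand), Sod2 (chr17:13007589-13007868, plus strand) and Prdx1 (chr4:116685349-116685628, plus strand) are shown because these 4 transcripts had the widest ranges among the Th17 libraries. They are printed 5′ to 3′ along the gene, up to 30 bases after the start, with 1 motif of each in capitals: the PU box of Cybb (reverse complement), the STAT sites of Ncf1 and Sod2, and the antioxidant response element of Prdx1 (reverse complement).
Cybb: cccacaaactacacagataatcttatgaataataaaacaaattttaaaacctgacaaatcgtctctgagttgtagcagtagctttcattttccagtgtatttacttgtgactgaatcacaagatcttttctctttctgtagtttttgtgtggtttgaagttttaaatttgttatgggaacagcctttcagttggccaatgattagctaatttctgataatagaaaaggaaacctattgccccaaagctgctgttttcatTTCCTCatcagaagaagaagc
Ncf1: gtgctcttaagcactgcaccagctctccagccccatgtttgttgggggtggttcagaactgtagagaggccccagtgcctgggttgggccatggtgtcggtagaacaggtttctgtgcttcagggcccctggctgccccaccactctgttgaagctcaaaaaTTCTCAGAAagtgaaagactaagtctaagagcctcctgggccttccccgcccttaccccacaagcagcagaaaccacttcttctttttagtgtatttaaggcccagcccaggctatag
Sod2: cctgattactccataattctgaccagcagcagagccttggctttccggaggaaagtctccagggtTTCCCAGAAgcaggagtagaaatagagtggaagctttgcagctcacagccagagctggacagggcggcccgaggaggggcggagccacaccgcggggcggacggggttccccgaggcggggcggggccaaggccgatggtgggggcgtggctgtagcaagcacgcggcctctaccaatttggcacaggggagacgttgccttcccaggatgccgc
Prdx1: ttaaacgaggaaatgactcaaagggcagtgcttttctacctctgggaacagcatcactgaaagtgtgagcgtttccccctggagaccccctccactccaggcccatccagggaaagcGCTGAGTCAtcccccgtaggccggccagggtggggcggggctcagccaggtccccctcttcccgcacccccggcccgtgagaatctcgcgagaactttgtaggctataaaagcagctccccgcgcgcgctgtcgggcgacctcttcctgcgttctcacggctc
The PU box of Cybb begins at base 10 after the start. The STAT sites of Ncf1 and Sod2 begin 88 and 185 bases before it, and the antioxidant response element of Prdx1 begins 133 bases before it and overlaps an AP-1 match. Other matches were left in lower case: a PU box in Sod2 (203 bases before the start) and in Prdx1 (244 bases before), and an AP-1 site in Cybb (139 bases before) and in Prdx1 (237 bases before). Among 32851 promoter windows of the same length, 28.3% held a PU box, 8.3% the STAT site, 12.4% the antioxidant response element and 7.81% the AP-1 site, so such matches are common, and they describe letters, not bound sites. The windows of Cyba, Gpx1 and Nqo1 held none of the 4 letter patterns. The start used for the Cybb window lies inside the gene span that RefSeq itself gives (9435252 to 9487766). It also lies inside the span of the annotation used for positions below.

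**Figure D1:**
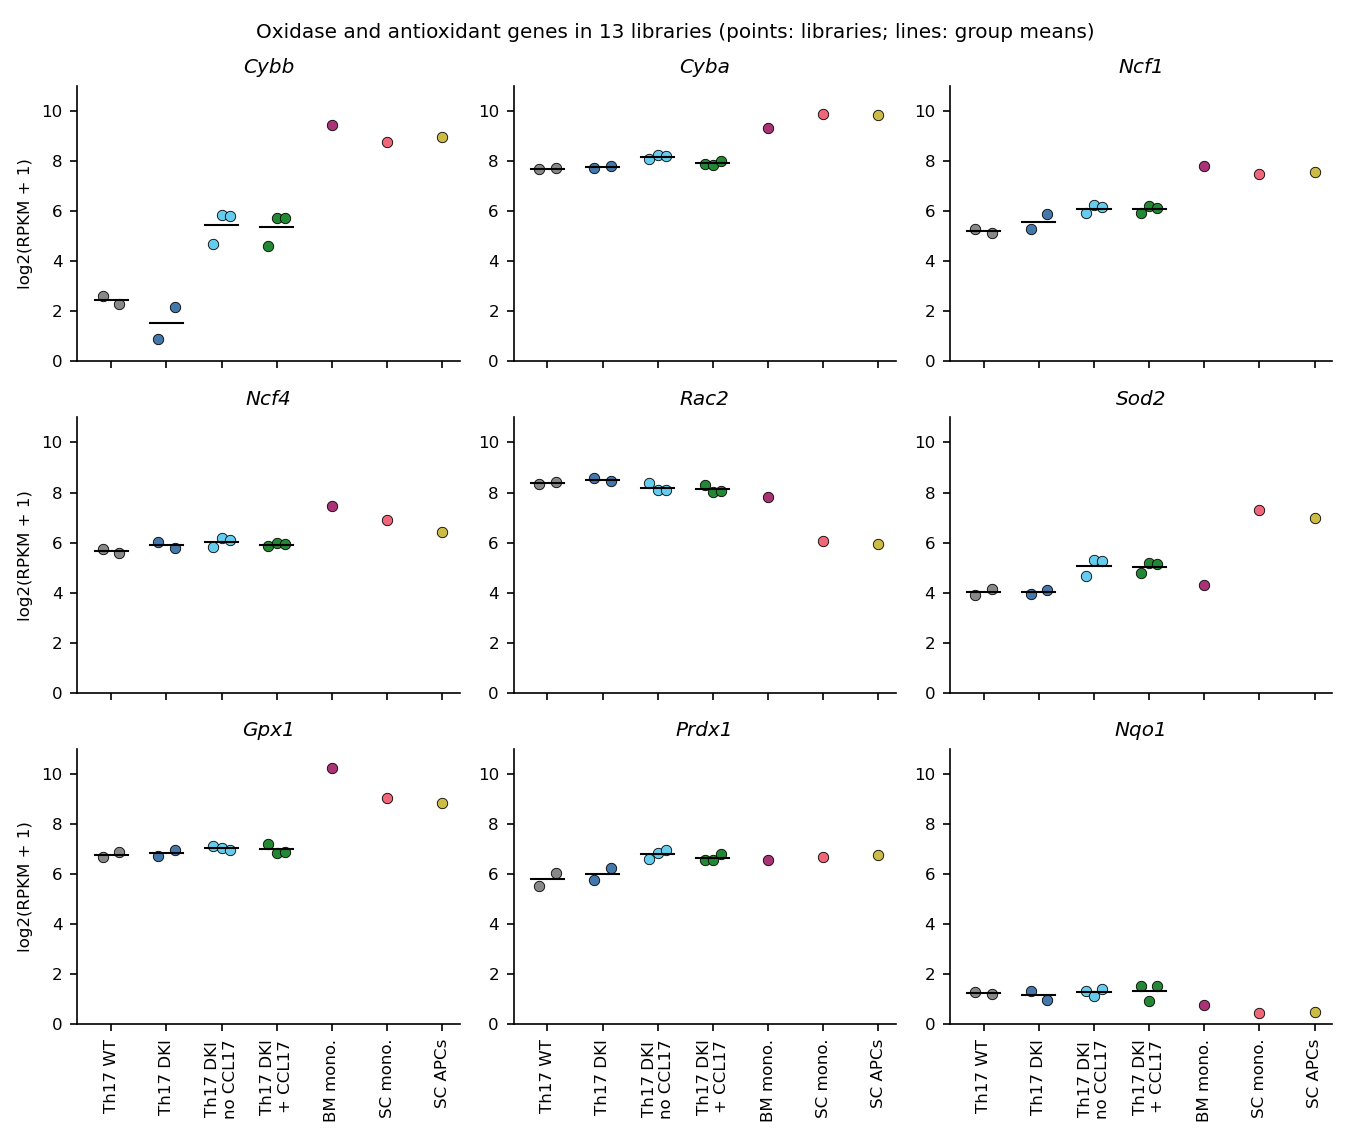
Level of each of the 9 genes, as log2(RPKM + 1) on the vertical axis, in the 13 libraries. Points are libraries, black lines are means of the Th17 groups with more than 1 library, and BM, SC and mono. stand for bone marrow, spinal cord and monocytes. Cybb spans the widest range (0.90 to 9.46), and Rac2 and Nqo1 are lower in all 3 myeloid libraries than in all 10 Th17 libraries.

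Cybb (Entrez 13058, chrX:9435252-9487771, minus strand, GRCm38) had the widest range of the 9 genes. Its level was 9.46 in bone marrow monocytes, 8.77 in spinal cord monocytes and 8.95 in spinal cord APCs. In the Th17 libraries it was 2.62 and 2.31 in WT, 0.90 and 2.18 in DKI, 4.68, 5.83 and 5.81 in DKI without CCL17, and 4.63, 5.74 and 5.71 with CCL17. The catalytic subunit was thus highest in the myeloid libraries, intermediate in the 6 libraries of the CCL17 experiment and lowest in WT and DKI, with no overlap between these 3 sets. The groups with and without CCL17 overlapped throughout. WT and DKI did not overlap, but the gap between 2.31 and 2.18 was smaller than the spread within DKI.

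Cyba (Entrez 13057, chr8:122424776-122432930, minus strand) was high everywhere. Its level was 9.33 in bone marrow monocytes, 9.88 in spinal cord monocytes and 9.84 in spinal cord APCs. The Th17 values were 7.67 and 7.72 in WT, 7.74 and 7.82 in DKI, 8.08, 8.23 and 8.22 in DKI without CCL17, and 7.90, 7.85 and 7.99 with CCL17. No Th17 group overlapped another, although the step from 7.72 in WT to 7.74 in DKI was smaller than the spread within either. In RPKM, Cybb stood at 109% of Cyba in bone marrow monocytes, at 46.2% in spinal cord monocytes and at 53.9% in spinal cord APCs. Among the Th17 libraries this ratio was 0.408% to 2.54% in WT and DKI and 9.17% to 22.8% in the CCL17 experiment, so the partner subunit's transcript was present in Th17 cells with little of the catalytic one.

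Ncf1 (Entrez 17969, chr5:134220053-134229625, minus strand), the organizer that brings the cytosolic complex to the membrane, was at 7.79, 7.47 and 7.55 in bone marrow monocytes, spinal cord monocytes and spinal cord APCs. It was at 5.29 and 5.14 in WT, 5.27 and 5.90 in DKI, 5.91, 6.24 and 6.17 in DKI without CCL17, and 5.93, 6.19 and 6.14 with CCL17. Myeloid libraries lay above Th17 libraries, WT and DKI overlapped, and the CCL17 pair overlapped. Exons of Ncf1 overlap those of Gtf2ird2 on the other strand. Use of strand in counting was not given in the sources used here, so reads of the pair cannot be told apart, and the level of Ncf1 is uncertain to that extent. The level of Gtf2ird2 ran from 1.93 in spinal cord monocytes to 3.17 in DKI Th17 cells, below Ncf1 in every library. Its part in the values of Ncf1 was not tested.

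Ncf4 (Entrez 17972, chr15:78244801-78262580, plus strand), whose product binds a phosphoinositide of the phagosome membrane, was at 7.48, 6.90 and 6.44 in the same 3 myeloid libraries. In Th17 cells it varied little, from 5.59 to 6.17 with a median of 5.90, and WT (5.59 and 5.74) lay below the other groups, which overlapped. Among the myeloid libraries, bone marrow monocytes were highest and spinal cord APCs lowest.

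Rac2 (Entrez 19354, chr15:78559167-78572783, minus strand), a Rac GTPase of blood cells with roles in both phagocytes and lymphocytes, ran the other way. It was at 7.81 in bone marrow monocytes, 6.06 in spinal cord monocytes and 5.95 in spinal cord APCs, and at 8.35 and 8.43 in WT, 8.57 and 8.46 in DKI, 8.39, 8.09 and 8.10 in DKI without CCL17, and 8.30, 8.01 and 8.07 with CCL17. Both cord libraries were lowest, bone marrow monocytes were next, and the Th17 libraries were highest. In RPKM, Rac2 exceeded Cyba in 8 of the 10 Th17 libraries (90.6% to 178% of Cyba), and stood at 34.6% of Cyba in bone marrow monocytes and 6.63% to 6.97% in the cord. Rac1, the ubiquitous relative that can serve the oxidase in its place, stayed between 7.27 and 8.32 in all 13 libraries.

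Sod2 (Entrez 20656, chr17:13006846-13040063, plus strand) separated the myeloid libraries from each other. It was at 4.32 in bone marrow monocytes, 7.30 in spinal cord monocytes and 6.97 in spinal cord APCs. Th17 values were 3.89 and 4.14 in WT, 3.94 and 4.10 in DKI, 4.67, 5.30 and 5.27 in DKI without CCL17, and 4.77, 5.17 and 5.13 with CCL17. Bone marrow monocytes thus lay among the Th17 cells, above WT and DKI and below the CCL17 experiment, and the cord libraries lay above both.

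Gpx1 (Entrez 14775, chr9:108338903-108340343, plus strand) was the most abundant of the 9 in bone marrow monocytes, at 10.24 (1210 RPKM), and was at 9.05 and 8.83 in spinal cord monocytes and APCs. Th17 values ran from 6.67 to 7.21 with a median of 6.93, and groups next to each other in order overlapped.

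Prdx1 (Entrez 18477, chr4:116685544-116700822, plus strand) was at nearly the same level in the 3 myeloid libraries, 6.56, 6.69 and 6.76. It varied more among Th17 cultures, with 5.54 and 6.06 in WT, 5.75 and 6.24 in DKI, 6.61, 6.84 and 6.98 in DKI without CCL17, and 6.56, 6.57 and 6.79 with CCL17. WT and DKI lay below the CCL17 experiment and below the myeloid libraries, and the last 2 sets overlapped. RefSeq annotates a Prdx1 pseudogene, and how reads with several matches were counted was not given in the sources used here.

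Nqo1 (Entrez 18104, chr8:107388225-107403206, minus strand) was near the detection limit, at 0.78, 0.44 and 0.50 in bone marrow monocytes, spinal cord monocytes and spinal cord APCs, which correspond to an estimated 35, 15 and 16 reads. Th17 values ran from 0.95 to 1.54 (0.937 to 1.92 RPKM), with a median of 1.31. The Th17 groups overlapped, and the myeloid libraries lay below them.

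Relatives of the oxidase were scarce. Of the other genes on a list of NADPH oxidase components, 8 (Nox1, Nox3, Nox4, Noxa1, Duox1, Duox2, Duoxa1 and Duoxa2) had an RPKM under 1 in every library, with a highest level of 0.82. Nox3, Duox2, Duoxa1 and Duoxa2 had no reads in any library. Noxo1 reached 1.32 in 1 WT Th17 library. Cybc1, which encodes the chaperone of the membrane core, was between 4.77 and 5.90, and the proton channel gene Hvcn1, which balances the oxidase's charge movement, was between 4.01 and 6.82.

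The myeloid libraries as a class were compared with the Th17 libraries as a class, so that the spread among the 3 myeloid libraries counted as error. Of the 9 genes, 6 were called higher (Cybb, Cyba, Ncf1, Ncf4, Gpx1 and Sod2), 2 lower (Rac2 and Nqo1) and Prdx1 was not called (limma, Benjamini-Hochberg adjusted p under 0.05). The background is broad here: 73.5% of 11829 genes tested were called, 14.7% higher and 58.8% lower. The filter asked for RPKM of 1 in 3 of the 13 libraries. A gene read in myeloid libraries alone thus needed all 3, and one read in Th17 libraries alone needed 3 of 10. This favoured genes lower in the myeloid class. Groups did not overlap for 7 of the 9 genes, against 53.9% of genes tested. The median gene was 0.63 lower in the myeloid class, and with libraries centred on the median gene the split of calls was 3427 higher and 3345 lower, in place of 1733 and 6961.

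Cybb was higher in the myeloid class by 5.02 on the log2 scale (SE 1.02, limma adjusted p = 0.000634). Gpx1 was higher by 2.44 (SE 0.22, limma adjusted p = 7.61e-07), Ncf1 by 1.79 (SE 0.24), Cyba by 1.77 (SE 0.15) and Ncf4 by 1.04 (SE 0.18). Rac2 was lower by 1.67 (log2 difference -1.67, SE 0.30, limma adjusted p = 0.000216). The exact two-sided permutation test over 3 against 10 libraries gave 0.00699 for each of the 7 genes without overlap, the smallest p that this design allows, in a family of 9 such tests without adjustment. With the 4 WT and DKI libraries as the Th17 class, in which myeloid markers were lowest, Cybb was at 7.06 and Prdx1 at 0.77 (limma adjusted p = 0.00976). That alternative was chosen after seeing the data. Cell type, organ and culture differ together between these classes and cannot be told apart.

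Sod2 and Nqo1 were less firm. Sod2 was higher by 1.56 (SE 0.53, limma adjusted p = 0.0167, exact permutation p = 0.049), and its call was lost without the spinal cord APC library (1.17, adjusted p = 0.107) or without the spinal cord monocyte library (1.01, adjusted p = 0.138). Nqo1 differed by -0.70 (SE 0.15, limma adjusted p = 0.000822), but by -0.09 (adjusted p = 0.601) with libraries centred on the median gene and by -0.04 with quantile normalization. At 0.36 to 0.719 RPKM in the myeloid libraries, Nqo1 passed the filter of RPKM 1 through Th17 libraries only. The filter thus favoured its call as lower. Prdx1 differed by 0.28 (SE 0.27, limma adjusted p = 0.366, exact permutation p = 0.42), and was called higher (0.88, adjusted p = 0.0113) after centring.

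Pathway lists were called in shares from below to slightly above the background of 73.5% of all genes (14.7% higher and 58.8% lower), so their counts are given as a description. In oxidase activation signalling, 5 of 14 were called higher and 2 lower. They included the kinase genes Pak1 (3.23) and Prkcd (2.79), whose products phosphorylate cytosolic subunits, and the fungal pattern receptor gene Clec7a (4.06). In the glutathione system 7 of 19 were higher and 8 lower, with the microsomal transferase gene Mgst1 at 5.67 and Gstt1 at -3.74. In the thioredoxin and peroxiredoxin system 5 of 14 were higher and 5 lower, and Prdx5 (3.74) and the methionine sulfoxide reductase gene Msrb1 (3.49) were higher. For the NRF2 pathway the counts were 8 and 7 of 23, with Nfe2l2, which encodes NRF2 itself, at 2.77. Bach1, which encodes a repressor of the pathway, was at 2.72. Of 8 genes that supply NADPH, 4 were higher and none lower, among them Idh1 (2.43) and Pgd (1.86). List medians ran from -0.42 for thioredoxin and peroxiredoxin genes to 0.82 for NADPH supply, beside the median of -0.63 for all genes.

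Spinal cord monocytes were set against bone marrow monocytes to see how these genes differed between the inflamed tissue and the marrow. With 1 library each there is no test, and the intervals given are exact binomial 95% intervals on estimated reads (Clopper-Pearson), which cover counting error only. Of the 9 genes, 8 passed the filter of RPKM 5 in either library. Sod2 was 8.27-fold higher in the cord (interval 7.98 to 8.57), Rac2 was 3.40-fold lower (3.30 to 3.50) and Gpx1 was 2.28-fold lower (2.24 to 2.32). These 3 of 8 passed 2-fold, a share near the background, since 30.5% of 8182 genes did (11.5% higher and 19% lower). Sod2 also passed 4-fold, as did 11.4% of genes.

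The oxidase subunits other than Rac2 stayed within 2-fold. Cybb was 1.62-fold lower in the cord (1.60 to 1.63), Ncf4 was 1.5-fold lower (1.45 to 1.56), Ncf1 was 1.25-fold lower (1.23 to 1.28), and Cyba was 1.46-fold higher (1.43 to 1.49). Prdx1 was 1.09-fold higher (1.06 to 1.13). The median gene was lower in the cord by 0.37 on the log2 scale. With libraries centred on the median gene, Sod2 was at 3.28, Cyba at 0.85, Prdx1 at 0.43, Ncf1 at -0.03, Ncf4 at -0.28, Cybb at -0.39, Gpx1 at -0.89 and Rac2 at -1.45, so Gpx1 no longer reached 2-fold. In a bulk library, fewer cells of a type and less RNA per cell cannot be told apart. Of 8 neutrophil markers past the filter, 7 were 4-fold lower in the cord (median -3.88), and of 8 microglia markers 4 were 4-fold higher (median 2.58). The part of these cells in the differences above was not tested.

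Spinal cord APCs differed little from spinal cord monocytes in these genes. None of the 8 genes passed 2-fold, and the background was low, at 2.49% of 7499 genes. The largest differences were those of Ncf4, 1.39-fold lower in APCs (1.32 to 1.45), and Sod2, 1.26-fold lower (1.24 to 1.29). Cyba was at 0.975 of the monocyte RPKM (0.954 to 0.995). Markers of other cells did move in this pair: 9 of 9 microglia markers past the filter were 2-fold higher in the APCs (median 1.53), 3 of 3 dendritic cell markers were (median 2.85), and 4 of 6 neutrophil markers were (median 1.52). Set against bone marrow monocytes, the APC library had Sod2 6.56-fold higher, Rac2 3.67-fold lower, Gpx1 2.67-fold lower and Ncf4 2.08-fold lower, against 29.5% of 8325 genes (12.3% higher and 17.2% lower). Both cord comparisons share the bone marrow library.

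**Figure D2:**
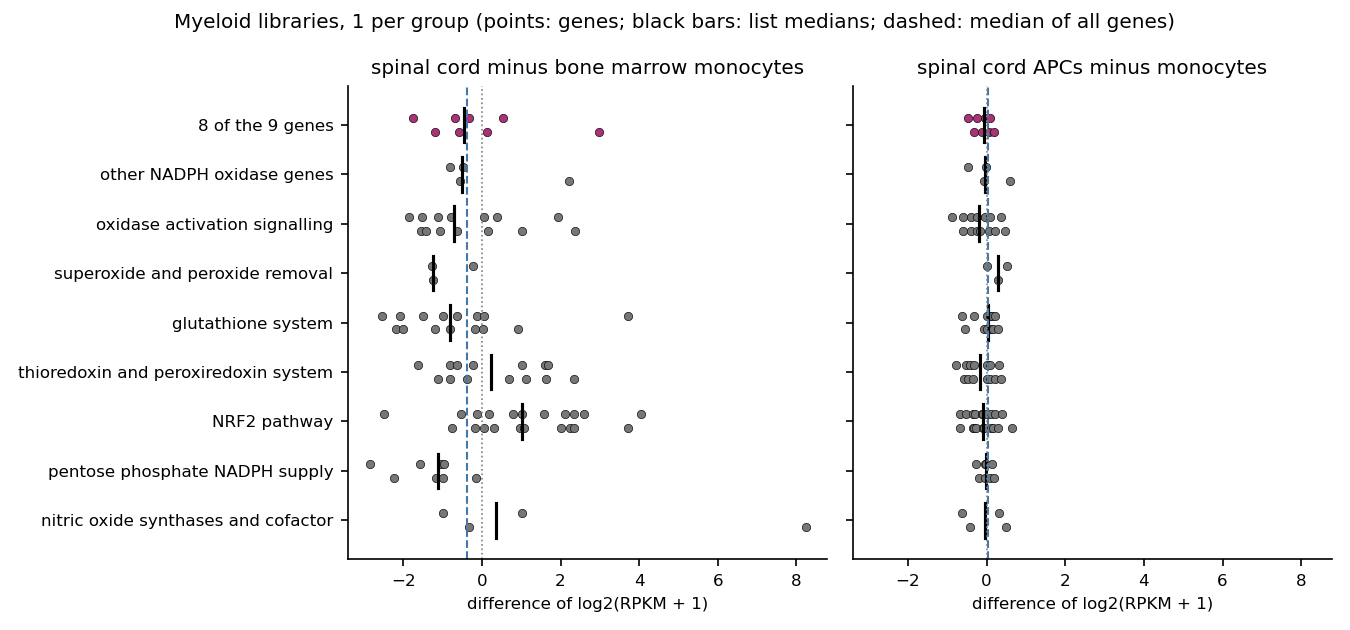
Difference of log2(RPKM + 1) between single myeloid libraries for the 8 genes past the filter and for 8 lists of related genes, with 1 point per gene. Black bars are list medians and the dashed line is the median of all genes past the filter (-0.37 on the left, 0.03 on the right). Spread between cord and marrow is wide in most lists, while the 2 cord libraries lie close together.

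Several genes around the oxidase passed 2-fold between cord and marrow. Hvcn1 was 4.90-fold higher in spinal cord monocytes (4.61 to 5.20). Of 14 activation genes, 3 were 2-fold higher and 6 lower, beside 11.5% and 19% of all genes. The receptor genes Clec7a (5.22-fold) and Fpr2 (3.91-fold) were higher, and Tiam1 (3.87-fold), which encodes a Rac exchange factor, and Prkcb (3.11-fold) were lower. Genes of the pentose phosphate route and its neighbours, which supply the NADPH that both the oxidase and glutathione recycling consume, had 5 of 8 members 2-fold lower and none higher, beside the same shares of all genes (median -1.11, against -0.37 for all genes). The largest differences there were Idh1 (7.43-fold lower), G6pdx (4.78-fold) and Rpia (3.12-fold). Gsr, which encodes the enzyme that recycles glutathione with NADPH, was 4.30-fold lower. Cat, the catalase gene, was 2.48-fold lower, and Sod1, which encodes the cytosolic dismutase, was 2.37-fold lower.

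Of 21 NRF2 pathway genes past the filter, 11 were 2-fold higher in spinal cord monocytes and 1 was lower, beside 11.5% and 19% of all genes, and the other 9 stayed within 2-fold. Above 0 lay 16 of the 21 (median 1.02, against -0.37 for all genes). Fth1, the ferritin heavy chain gene, was 16.5-fold higher (16.3 to 16.6), Mafk was 6.55-fold higher, and Srxn1, which encodes the enzyme that repairs oxidized peroxiredoxins, was 6.08-fold higher. Slc7a11, the cystine transporter gene, was at a level of 0.33 in bone marrow monocytes and 4.04 in spinal cord monocytes, a 60.6-fold ratio of RPKM (48.1 to 77.1). Nqo2 was 6.97-fold lower. Hmox1 (5.11-fold higher) and Nfe2l2 (4.10-fold higher) were chosen after their values were seen. Nqo1, the pathway's best-known target, was not among the genes that passed the filter. Peroxiredoxin genes were split, with Prdx5 3.17-fold and Prdx6 3.08-fold higher and Prdx4 3.19-fold lower. Ferritin genes have many processed pseudogenes, so their values are uncertain to that extent.

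STAT5 tetramer deficiency was examined by comparing DKI with WT Th17 cells. None of the 9 genes was called, nor was any of 11078 genes tested (limma, Benjamini-Hochberg, percent called 0), while 1879 genes (17%) and none of the 9 had an unadjusted p under 0.05. Cybb differed by -0.93 (SE 0.54, limma adjusted p = 0.402), but this value rested on DKI replicate 1: it was -0.29 without that library and -1.56 without DKI replicate 2. The others ran from -0.08 for Nqo1 to 0.37 for Ncf1 (SE 0.20, limma adjusted p = 0.37), which in turn was 0.68 without DKI replicate 1 and 0.05 without DKI replicate 2. Groups did not overlap for 4 of the 9 genes (Cybb, Cyba, Ncf4 and Rac2), a share near the 39.9% of all genes tested. Beside Cybb, 9 of 9 tested myeloid markers were also below 0 (median -0.93, against 0.03 for all genes). The part of residual myeloid cells in the value of Cybb was not tested.

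DKI cultures with CCL17 were compared with DKI cultures labelled as without it, a set called the CCL17 experiment here. The labels do not say when these and the other Th17 cultures were made. None of the 9 genes was called, nor was any of 11297 genes (limma, Benjamini-Hochberg, percent called 0), while 411 genes (3.64%) had an unadjusted p under 0.05. Cyba was the single member among these. It was lower with CCL17 by 0.26 on the log2 scale (log2 difference -0.26, SE 0.07, limma adjusted p = 0.999), and its groups did not overlap, as for 9.49% of genes. The other 8 differences ran from -0.18 for Prdx1 to 0.05 for Nqo1, each within 2 SE of 0 in this fit without pairing. Replicate numbers were taken to pair these libraries, which no label states. Residuals of replicates 2 and 3 correlated as well across numbers (0.50 and 0.53) as within them (0.51 and 0.52), so their matching is assumed. On this matching, 4 of the 9 genes were lower with CCL17 in all 3 pairs, as were 20.1% of all genes. None was higher in all 3, as were 16.4%. These pair differences were -0.18, -0.38 and -0.23 for Cyba, -0.06, -0.27 and -0.19 for Prdx1, -0.05, -0.10 and -0.10 for Cybb, and -0.08, -0.08 and -0.03 for Rac2. With the replicate number as a block the SE of Cybb fell from 0.42 to 0.04, yet none of the 9 was called, Cyba having a limma adjusted p of 0.134, Prdx1 0.227, Cybb 0.448 and Rac2 0.505. That fit called 2 genes, both higher with CCL17. Myeloid markers were also lower with CCL17: 10 of 10 lay below 0 (median -0.21, against -0.01 for all genes), 9 of them in all 3 pairs, while 7 of 7 B cell markers lay above 0 (median 0.15), 1 of them in all 3 pairs. Of 10 T cell markers 3 lay above 0 (median -0.02), and 5 were lower in all 3 pairs. Of 8 neutrophil markers 6 lay above 0 (median 0.13), and 1 was lower in all 3 pairs. Medians were -0.08 for CD8 and NK, -0.06 for microglia and 0.02 for dendritic cell markers. The part of these cells in the values of Cyba and the others was not tested. Replicate 1 stood apart in both groups. With replicates 2 and 3 only, an alternative chosen after seeing the data, Cyba was called (-0.31, limma adjusted p = 0.0418) among 213 genes.

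**Figure D3:**
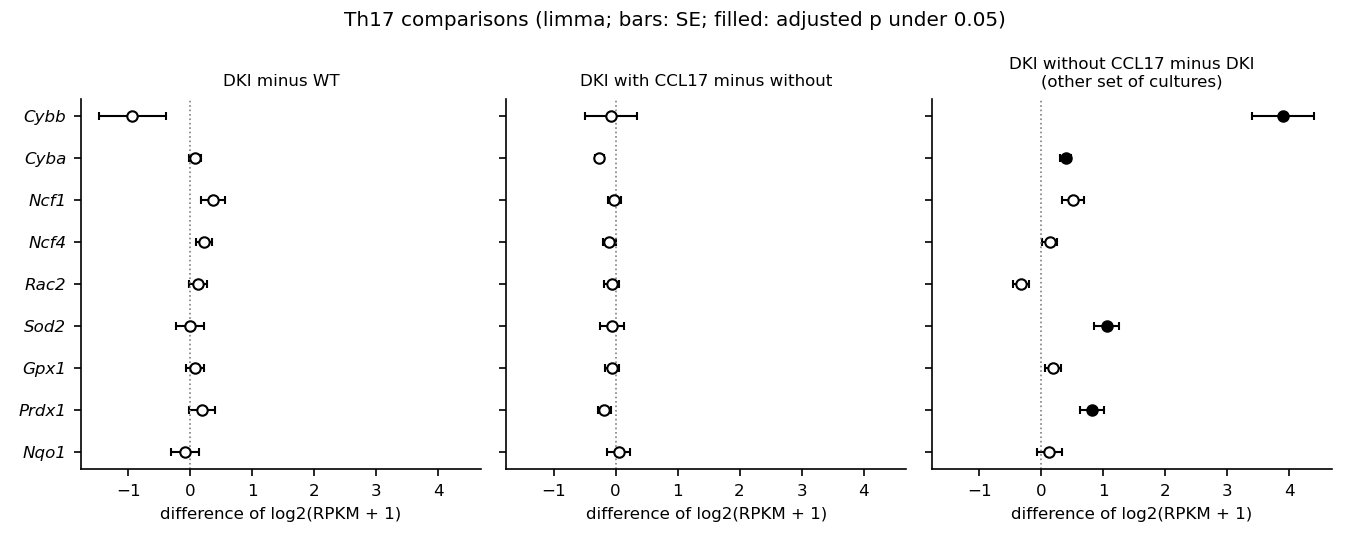
Difference of log2(RPKM + 1) for the 9 genes in the 3 Th17 comparisons, with points for the limma estimate, bars for its SE and filled points for an adjusted p under 0.05. Filled points appear in the right panel only, for Cybb (3.90), Cyba (0.40), Sod2 (1.06) and Prdx1 (0.82).

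More genes were called between the sets of untreated DKI cultures. DKI cells of the CCL17 experiment, cultured without CCL17, were compared with the DKI cells of the genotype comparison. Their labels differ in naming CCL17 or not, and culture set, time and handling cannot be told apart. Of the 9 genes, 4 were called, all higher in the CCL17 experiment (limma, Benjamini-Hochberg), against 33.2% of 11507 genes (15.4% higher and 17.8% lower). Groups did not overlap for 6 of the 9, near the 55.6% of all genes. This comparison shares its DKI libraries with the genotype comparison and its other libraries with the CCL17 comparison.

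Cybb was higher by 3.90 (SE 0.50, limma adjusted p = 0.00096), Sod2 by 1.06 (SE 0.20, adjusted p = 0.00526), Prdx1 by 0.82 (SE 0.20, adjusted p = 0.0137) and Cyba by 0.40 (SE 0.09, adjusted p = 0.00966). At 0.868 and 3.52 RPKM in DKI replicates 1 and 2, Cybb could not pass the filter of RPKM 1 in 2 libraries on the DKI libraries alone. The filter thus favoured its call as higher. Ncf1 (0.52, limma adjusted p = 0.0565), Ncf4 (0.14), Gpx1 (0.19), Nqo1 (0.13) and Rac2 (-0.33, adjusted p = 0.0815) were not called. The call of Prdx1 was lost without DKI replicate 1 (0.57, adjusted p = 0.082). Ncf1 was called without DKI replicate 2 (0.84, adjusted p = 0.0085) or without replicate 1 of the DKI libraries without CCL17 (0.62, adjusted p = 0.0447), and leaving out the latter also brought a call for Rac2 (-0.43, adjusted p = 0.0341).

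Most markers of myeloid cells, B cells and neutrophils were called in the same direction as these 4 genes, while most of those of other cell types were not. All 10 myeloid markers were called higher (median 3.76, against -0.01 for all genes), all 7 B cell markers were (median 2.06), and 6 of 7 tested neutrophil markers were (median 1.88). Some of these, such as Adgre1 (0.16), Pax5 (0.47), Blk (0.37) and Ltf (0.17), had a DKI mean level under 1. They could not pass the filter on the DKI libraries alone, which favoured a call as higher. The myeloid sums were 37.5 to 40.4 RPKM in DKI and 714 to 1090 in DKI without CCL17, and the B cell sums were 7.73 to 17.9 and 63.8 to 99.1. T cell markers were called lower in 5 of 10 cases (median -0.28). Of 6 dendritic cell markers 5 lay above 0 (median 0.21), with 1 called higher and 1 lower. None was called of 3 CD8 and NK markers (median -0.35) or of 3 microglia markers (median 0.1), the latter all above 0. The part of these cells in the 4 calls was not tested. Across the 10 Th17 libraries, the level of Cybb correlated with that of Spi1 at r = 0.99, with Adgre1 at 0.99 and with Lyz2 at 0.98, as a description over libraries that share the culture set. Its correlation with Sod2 was 0.96, with Prdx1 0.89, with Ncf1 0.87, with Cyba 0.78, with Ncf4 0.54, with Gpx1 0.47, with Nqo1 0.16 and with Rac2 -0.92.

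Bone marrow monocytes give a scale for these levels. In WT and DKI Th17 libraries, Cybb stood at 0.123% to 0.731% of the bone marrow monocyte RPKM, within the span of the 10 myeloid markers, which ran from 0.019% for Lyz2 to 11.8% for Cebpb. Ncf1 (15.5% to 26.6%), Ncf4 (26.5% to 35.7%) and Cyba (31.5% to 34.9%) stood above every one of these markers. Rac2 was at 146% to 170%. Among antioxidant genes, Gpx1 was at 8.36% to 10.4%, Prdx1 at 48.8% to 80.2%, Sod2 at 73.0% to 87.4% and Nqo1 at 137% to 212%.

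In the 6 libraries of the CCL17 experiment, Cybb stood at 3.38% to 7.94%, and the markers ran from 1.95% for Lyz2 to 69.0% for Cd68, with Spi1 at 5.88% to 11.3%. Ncf1 (26.7% to 33.8%), Ncf4 (31.2% to 39.8%) and Cyba (35.6% to 46.5%) moved little by comparison and no longer stood above every marker. The bone marrow monocyte library is a single sample and need not resemble the myeloid cells in a culture.

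**Figure D4:**
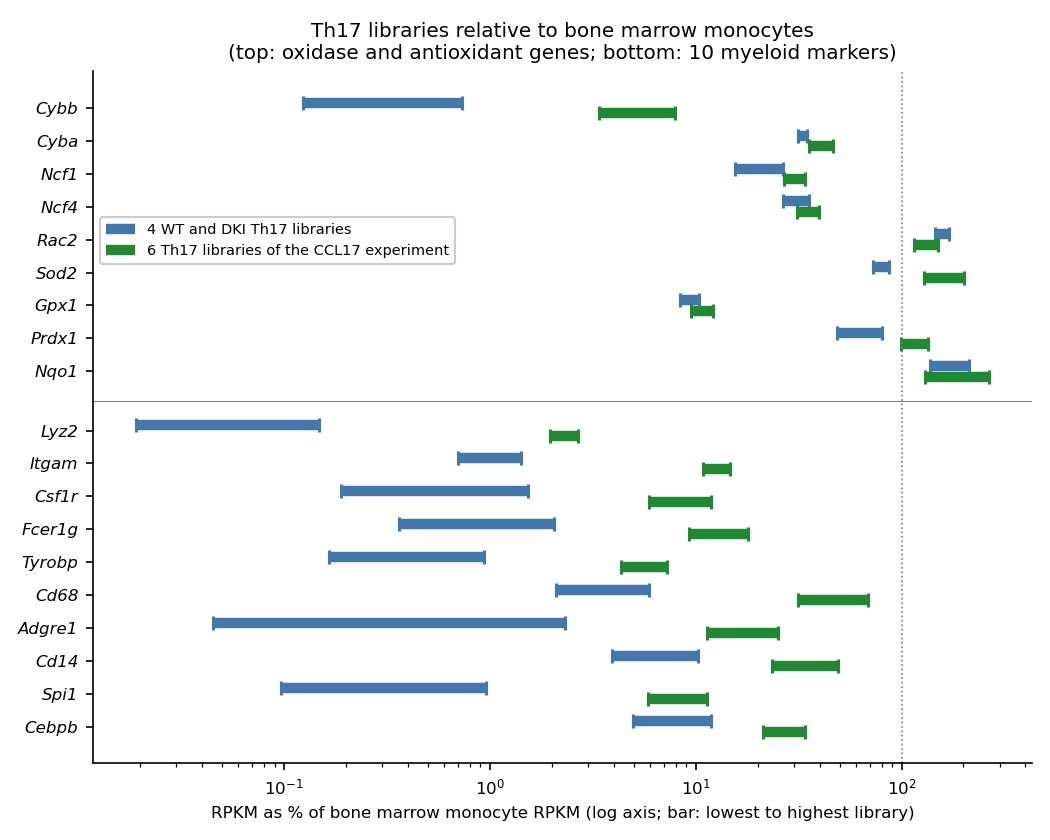
RPKM in Th17 libraries as a percentage of the bone marrow monocyte RPKM, on a log axis, with a bar from the lowest to the highest library of each set. The upper part holds the 9 genes, the lower part the 10 myeloid markers, and the dotted line marks 100%. Cybb lies among the markers in both sets, while Cyba, Ncf1 and Ncf4 lie above every marker in WT and DKI.

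Pathway genes also differed between the sets of untreated DKI cultures, beside the 33.2% of all genes called. Cybc1 was lower (-0.51, limma adjusted p = 0.00184). Of 14 activation genes, 6 were called higher and 3 lower, with the receptor genes Clec7a (5.95), Fpr1 (3.46) and Fpr2 (3.24) ahead and Pik3cd, a kinase gene of lymphocytes, at -0.92. The NRF2 pathway had 9 of 22 called higher and 2 lower (median 0.46, against -0.01 for all genes), led by Hmox1 (4.38), which encodes heme oxygenase, Slc7a11 (3.07), Fth1 (2.55) and Ftl1 (1.83). In the glutathione system 6 of 19 were higher and 5 lower, with Mgst1 at 3.25 and Gstm1 at 2.68. In the thioredoxin and peroxiredoxin system 3 of 14 were higher and none lower, namely Msrb1 (0.89), Prdx5 (0.74) and Txnrd1 (0.46). Rpe (0.42) was called among 8 NADPH supply genes, and Nos2, the inducible nitric oxide synthase gene, was higher by 3.13. The DKI mean levels of Mgst1 (0.44), Gstm1 (0.3), Slc7a11 (0.79), Nos2 (0.56), Fpr1 (0.5) and Fpr2 (0.96) were under the filter, which lies at a level of 1. These genes could not be tested on the DKI libraries alone, so the filter favoured a call as higher. Slc7a11 and a few others stand in 2 of these lists. In the genotype and CCL17 comparisons none of these pathway genes was called.

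Genes with the most similar profile were ranked by Pearson's r of the levels, as a description of libraries that share cell class and culture set. Over the 13 libraries, Cybb was closest to Spi1 (r = 0.997), which encodes PU.1, Lmo2 (0.996) and Marchf1 (0.994). Rac2 was closest to Adipor2 (0.996), Sash3 (0.994) and Tab2 (0.993). Sod2 was closest to Serpina3f (0.994), Rasgef1b (0.992) and Ptgs2 (0.990), the inducible cyclooxygenase gene. Gpx1 was closest to Sptlc2 (0.995), Pgd (0.993) and Rp2 (0.991), and Cyba to Prdx5 (0.991), Selenon and Rhob (both 0.990). Ncf1 had Lrrk1 (0.987) first, Ncf4 had Mcub (0.988), Prdx1 had Agpat5 (0.971) and Nqo1 had Ica1 (0.927).

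Within the 10 Th17 libraries the neighbours changed. Cybb was closest to Basp1 (0.997), Ctsh and Csf2rb2 (both 0.996). For Ncf1 they were the immunoglobulin genes Ighv1-84 (0.985), Ighg2c (0.982) and Ighv5-16 (0.980), and for Sod2 the light chain segments Igkv8-21 and Igkv4-69 (both 0.993) and then Mfsd1 (0.992). Such segments are near copies of each other, so their own values are uncertain. Rac2 was closest to Cers5 (0.985), Prdx1 to Agpat5 (0.987), Gpx1 to Sem1 (0.982), Cyba to Akirin1 (0.965) and Ncf4 to Med7 (0.969). Nqo1 had no close neighbour, with Pttg1ip first at 0.751.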

How the data were processed

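Libraries from 13 mouse samples were made with a KAPA mRNA HyperPrep kit, per the labels' protocols. The submitters' processing notes name build mm10, Subread and featureCounts, with versions, settings and annotation not given in the sources used here. Per gene and library, the authors deposited 1 log2 value, made as log2(RPKM + 1), and 0.0001 where a gene had no reads, which was set to 0. Symbols were found for 20857 of 21073 Entrez identifiers. The column used for spinal cord APCs bears another abbreviation and was the one column left for the one sample left.

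Depth was estimated from the step that 1 read makes in genes with few reads. At the estimated totals, 72.2% to 76.6% of values of up to 5 reads lay within 0.1 of a whole number, where an even spread gives 20%. Gene positions are from GENCODE vM21 on GRCm38.

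Tests were run with limma 3.58.1 (R 4.3.3), with a mean-variance trend and Benjamini-Hochberg adjustment over all genes tested, and were checked on simulated data. Testing required RPKM of 1 or more in 2 libraries (3 for the CCL17 and myeloid comparisons). The genotype comparison and that of untreated DKI sets came from 1 fit of the 10 Th17 libraries, and the CCL17 comparison used its 6 libraries. Single myeloid libraries were compared without a test at 2-fold. Residuals of libraries with equal replicate numbers correlated at 0.77, 0.51 and 0.52 in the CCL17 experiment, so these numbers were taken to pair the libraries. Replicates 2 and 3 correlated as well across numbers (0.50 and 0.53).

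The text names the 9 genes, up to 5 genes per pathway list and comparison with the largest difference among those called or past 2-fold, and the 3 nearest genes by Pearson's r. Some genes that this rule names are not reported here. The 9 genes, the lists and these rules were chosen with earlier results of these data known. Alternatives covered pseudocount, filter, scaling, replicate block, fit and left-out libraries.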

Additional observations from a re-analysis of the deposited data

How the results depend on the processing

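The library number limits every comparison: 2 or 3 per Th17 group and 1 per myeloid group, with no counts to test. Genotype: 0 genes were called, 4 with quantile normalization, and 0 to 580 when 1 library was left out (580 without DKI replicate 2, 123 without WT replicate 2, 4 without DKI replicate 1), but none of the 9 genes in any of these. The replicate block, for numbers that share no stated origin (residual correlation 0.45 for equal numbers), left 0 calls. With 2 libraries per group the value across numbers is then fixed at -0.45 and adds nothing. CCL17: the block gave 2 genes, replicates 2 and 3 alone gave 213 genes and 1 of the 9 (Cyba), and leaving out 1 library gave 0 each time. The block changed no other call. Untreated DKI sets: 2513 to 3526 genes were called with 1 library left out, against 3823, and 3 to 6 of the 9 genes. Myeloid class: 7330 to 8984 genes with 1 library left out. At 4-fold, 930 genes differed between cord and marrow monocytes, with 1 of the 9 (Sod2), and 24 between the cord libraries.

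Small differences that were not called changed sign. Genotype: Cyba was -0.03 with quantile normalization, and with 1 library left out Gpx1 ran from -0.05 to 0.20, Prdx1 from -0.06 to 0.45 and Nqo1 from -0.26 to 0.09. These ranges hold the offset between replicate numbers. At equal numbers, which no label pairs, DKI was above WT for Prdx1 (5.75 against 5.54, 6.24 against 6.06) and Gpx1 (6.73 against 6.67, 6.98 against 6.89). Nqo1 went both ways (1.34 against 1.29, 0.99 against 1.20). CCL17: quantile normalization put Ncf1 at 0.02 and Rac2 at 0.01, replicates 2 and 3 alone put Nqo1 at -0.03, and with 1 library left out Cybb ran from -0.46 to 0.28, Ncf1 from -0.12 to 0.06, Rac2 from -0.15 to 0.03, Sod2 from -0.26 to 0.07, Gpx1 from -0.17 to 0.01 and Nqo1 from -0.05 to 0.24. If replicate numbers pair the CCL17 libraries, leaving out 1 breaks a pair, and these ranges hold the spread between pairs. Within these assumed pairs Cybb and Rac2 kept 1 sign in all 3. Untreated DKI sets: Nqo1 was -0.08 with quantile normalization and ran from -0.04 to 0.31. The causes were not tested.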
